A study of Mus musculus with 2 samples.

Results

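Cathepsins and legumain are proteases of endosomes and lysosomes, and cystatin C is a secreted inhibitor of cysteine cathepsins. The 10 genes described here are Ctsb, Ctsl, Ctss, Ctsk, Ctsc, Ctsz, Ctsd, Ctsa, Lgmn and Cst3, all of which were found by symbol among the 34290 genes of the count tables. Their transcripts were followed in single cells from mouse tumours of the colorectal cancer line MC38, in 2 libraries. The TMEM16F KO library came from tumours of engrafted cells lacking TMEM16F, the lipid scramblase encoded by Ano6, and the vector control library from tumours of engrafted cells carrying the control vector. Tumours of both groups were taken at 21 days from mice that received no treatment, per the labels. The deletion was made in the engrafted cells, so the leukocytes compared here are cells of the host mouse. The sources used here give neither the mouse strain and age nor the number of clones and of mice per library.

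Cysteine cathepsins are made as proenzymes and become active in the acid of the endolysosome, where several also trim one another. Cathepsin S and cathepsin L cut the invariant chain that occupies the peptide groove of MHC class II molecules, and legumain, which cuts after asparagine, opens some antigens and matures several cathepsins. Macrophages are rich in all of these enzymes, dendritic cells secrete cystatin C in large amounts, and cathepsin K is best known from osteoclasts, the cells that resorb bone.

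There was 1 library per group, so no test was possible, and each difference is between these 2 libraries and has no replicate check. A gene's level in a class is given as CPM, its UMIs summed over the cells and scaled to all UMIs of those cells. Intervals at 95% cover counting error only. The TMEM16F KO library held 5993 barcodes and 49777630 UMIs and the vector control library 5253 barcodes and 46338994 UMIs, of which 5688 and 5028 barcodes were kept. The study states 10782 cells of 14 types, against 11246 barcodes in the files and 10716 kept here. The median was 5987 UMIs per kept TMEM16F KO cell and 6022 UMIs per kept vector control cell, and 14.6% and 20.5% of kept cells had under 2000 UMIs. Both libraries contained 10 of the same barcode sequences. Ano6 stood at 33.5 CPM (31.9 to 35.2) over all kept TMEM16F KO cells and at 28.7 CPM (27.1 to 30.3) over all kept vector control cells. This count does not check the deletion, since the engrafted cells carry it, the study describes the sequenced cells as infiltrating lymphocytes, and 3′ counting may still pick up RNA of an interrupted gene. The 6 epithelial markers together had 850 UMIs in TMEM16F KO and 1293 UMIs in vector control cells, of which Epcam had 251 and 285 and the keratin gene Krt8 had 1 and 0.

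Cells were put in classes from the UMIs of marker genes, none of them among the 10. Macrophage-like cells, led by Pf4, Ccl12, Folr2 and Apoe, were 1614 for TMEM16F KO and 1761 for vector control. Low-marker phagocyte-like cells, led by Arg1, F10, Mmp12 and Ccl24, numbered 1230 and 1031, and differ from the macrophage-like cells by a line drawn at 100 macrophage-marker UMIs per 10000. Near that line lay 448 TMEM16F KO and 493 vector control phagocytes, so the classes are ranges of 1 score. There were 81 and 63 conventional dendritic cell-like (cDC-like), 80 and 82 mature dendritic cell-like (mature DC-like) and 63 and 98 stroma-like cells. CD8 T-like cells numbered 958 and 736, other T-like cells 300 and 205, Treg-like cells 215 and 167, and NK-like cells 172 and 93. Stroma-like cells had a median of 10100 UMIs for TMEM16F KO, against 25154 UMIs for vector control. Within a class, a difference was counted when it passed 1.5-fold, and genes with under 20 UMIs over both libraries or a mean under 10 CPM were left out.

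The genes lie on 6 chromosomes (build mm10). Ctsk (chr3:95499256-95509362) and Ctss (chr3:95526786-95556403) are neighbours on the plus strand, with 17423 bases between them. Ctsb is at chr14:63122462-63145923, Ctsl at chr13:64359337-64370890, Ctsc at chr7:88278085-88310888, Ctsd at chr7:142375911-142388038 and Lgmn at chr12:102394084-102439813. Cst3 (chr2:148871722-148875692), Ctsa (chr2:164832873-164841032) and Ctsz (chr2:174427493-174439039) share chromosome 2. The annotation places other counted genes over parts of Ctsb (Fdft1), Ctsl (Gm47123), Ctsz (Nelfcd), Ctsd (Gm49369, on the same strand) and Ctsa (Neurl2 and Pltp). The sources used here do not give the strand setting of the counting, so reads in these overlaps may have been split between genes.

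The 3 promoter windows below are printed because their genes had the 3 highest ratios in macrophage-like cells and because they hold searched motifs. Each run is the 250 bases before the RefSeq start (GRCm38.p6, the assembly named mm10 elsewhere), 5′ to 3′ on the gene's strand. Capitals mark CACGTG, the E-box core bound by the TFEB and MITF family of lysosomal gene regulators, or the core of the interferon response element, GAAA, any 2 bases and GAAA again, both searched on both strands. The windows are chr7:142387828-142388077 (minus strand) for Ctsd, chr13:64370521-64370770 (minus strand) for Ctsl and chr3:95526536-95526785 (plus strand) for Ctss.
Ctsd: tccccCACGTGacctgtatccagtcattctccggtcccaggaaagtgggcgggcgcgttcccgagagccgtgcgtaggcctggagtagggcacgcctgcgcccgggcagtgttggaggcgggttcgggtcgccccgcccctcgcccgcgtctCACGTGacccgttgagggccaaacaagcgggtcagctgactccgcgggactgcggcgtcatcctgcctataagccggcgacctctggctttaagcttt
Ctsl: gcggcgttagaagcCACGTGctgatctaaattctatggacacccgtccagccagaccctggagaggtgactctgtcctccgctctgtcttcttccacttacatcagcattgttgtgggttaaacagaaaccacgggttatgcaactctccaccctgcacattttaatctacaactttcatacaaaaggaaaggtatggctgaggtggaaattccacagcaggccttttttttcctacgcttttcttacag
Ctss: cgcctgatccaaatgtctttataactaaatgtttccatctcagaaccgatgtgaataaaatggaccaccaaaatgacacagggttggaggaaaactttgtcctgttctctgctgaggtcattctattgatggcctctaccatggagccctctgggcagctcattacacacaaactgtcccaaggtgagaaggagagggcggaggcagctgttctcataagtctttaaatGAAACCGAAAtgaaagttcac
For Ctsd and Ctsl the RefSeq start lies inside the gene as counted. The Ctsd window overlaps its gene in part. The Ctsl window lies wholly inside its gene, so its E-box core is downstream of the counted 5′ end of the gene. In Ctsd the E-box cores begin 245 and 98 bases before the start, and in Ctsl the core begins 236 bases before it. In Ctss the interferon core begins 21 bases before the start. RefSeq windows were found for 9 of the 10 genes, all except Ctsb, in 11 windows of 250 bases. CACGTG was present at 4 of the 9 genes, the others being Ctsa and Lgmn, each at 1 of their 2 starts (12 and 49 bases before it). These windows of Ctsa and Lgmn also lie wholly inside the gene as counted, and the windows at their other starts had no CACGTG. Of all 27025 genes with a promoter window, 6.86% had CACGTG in at least 1 and 3.46% had the interferon core. Such a match is a description of the sequence and says nothing of what binds there.

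Among the cysteine cathepsins, Ctsl showed the largest difference in macrophage-like cells. Cathepsin L is an endopeptidase of broad specificity. Ctsl stood at 2102 CPM in TMEM16F KO and 1063 CPM in vector control macrophage-like cells, a ratio of 1.98 (1.94 to 2.01). Ctss, whose product works at near neutral as well as acid pH, followed with 5042 CPM in TMEM16F KO and 3369 CPM in vector control cells, a ratio of 1.50 (1.48 to 1.51) that lay just below 1.5 before rounding. Ctsb, an endopeptidase that can also remove dipeptides from the C-terminus, stood at 2470 CPM in TMEM16F KO and 1706 CPM in vector control cells, a ratio of 1.45 (1.43 to 1.47). These 3 genes were higher in the TMEM16F KO library, and Ctsl alone passed 1.5-fold.

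The remaining cysteine cathepsins were closer to level. Ctsc, the dipeptidyl peptidase that activates granule serine proteases, stood at 2175 CPM in TMEM16F KO and 2036 CPM in vector control macrophage-like cells, a ratio of 1.07 (1.05 to 1.08). Ctsz, a carboxypeptidase, stood at 856 and 820 CPM, a ratio of 1.04 (1.02 to 1.07). Ctsk was near absent, at 5.39 CPM in TMEM16F KO and 6.62 CPM in vector control cells, below the filter.

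Outside the cysteine cathepsins, 1 gene of 4 showed a difference of the size of Ctsb. Ctsd, the aspartic cathepsin, stood at 1259 CPM in TMEM16F KO and 858 CPM in vector control macrophage-like cells, a ratio of 1.47 (1.44 to 1.50). Ctsa, a serine carboxypeptidase that also protects the sialidase Neu1 and beta-galactosidase, stood at 321 and 299.5 CPM (ratio 1.07, 1.03 to 1.11). Lgmn stood at 1110 CPM in TMEM16F KO and 1117 CPM in vector control cells (ratio 0.994, 0.974 to 1.01). Cst3, the inhibitor, stood at 2623 and 2518 CPM (ratio 1.04, 1.03 to 1.06). The inhibitor and the asparaginyl protease were thus nearly level in cells in which Ctsl, Ctss, Ctsd and Ctsb were higher.

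In macrophage-like cells 1 of the 9 genes above the filter (Ctsl) passed 1.5-fold higher and 0 passed it lower, beside 6.23% of all 6949 genes above the filter past 1.5-fold in either direction (3.37% higher and 2.86% lower). The median log2 ratio of the 9 was 0.10, against -0.0019 over all genes. Because Ctss sat so close to the line, the count was 2 with classes taken from clusters, with cells of at least 2000 UMIs, without the richest barcode of each gene, or without the cluster with the lowest median UMIs. The count was 0 at a line of 2-fold. Over the alternatives computed, the Ctsl ratio ranged from 1.63 to 1.99.

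**Figure D1:**
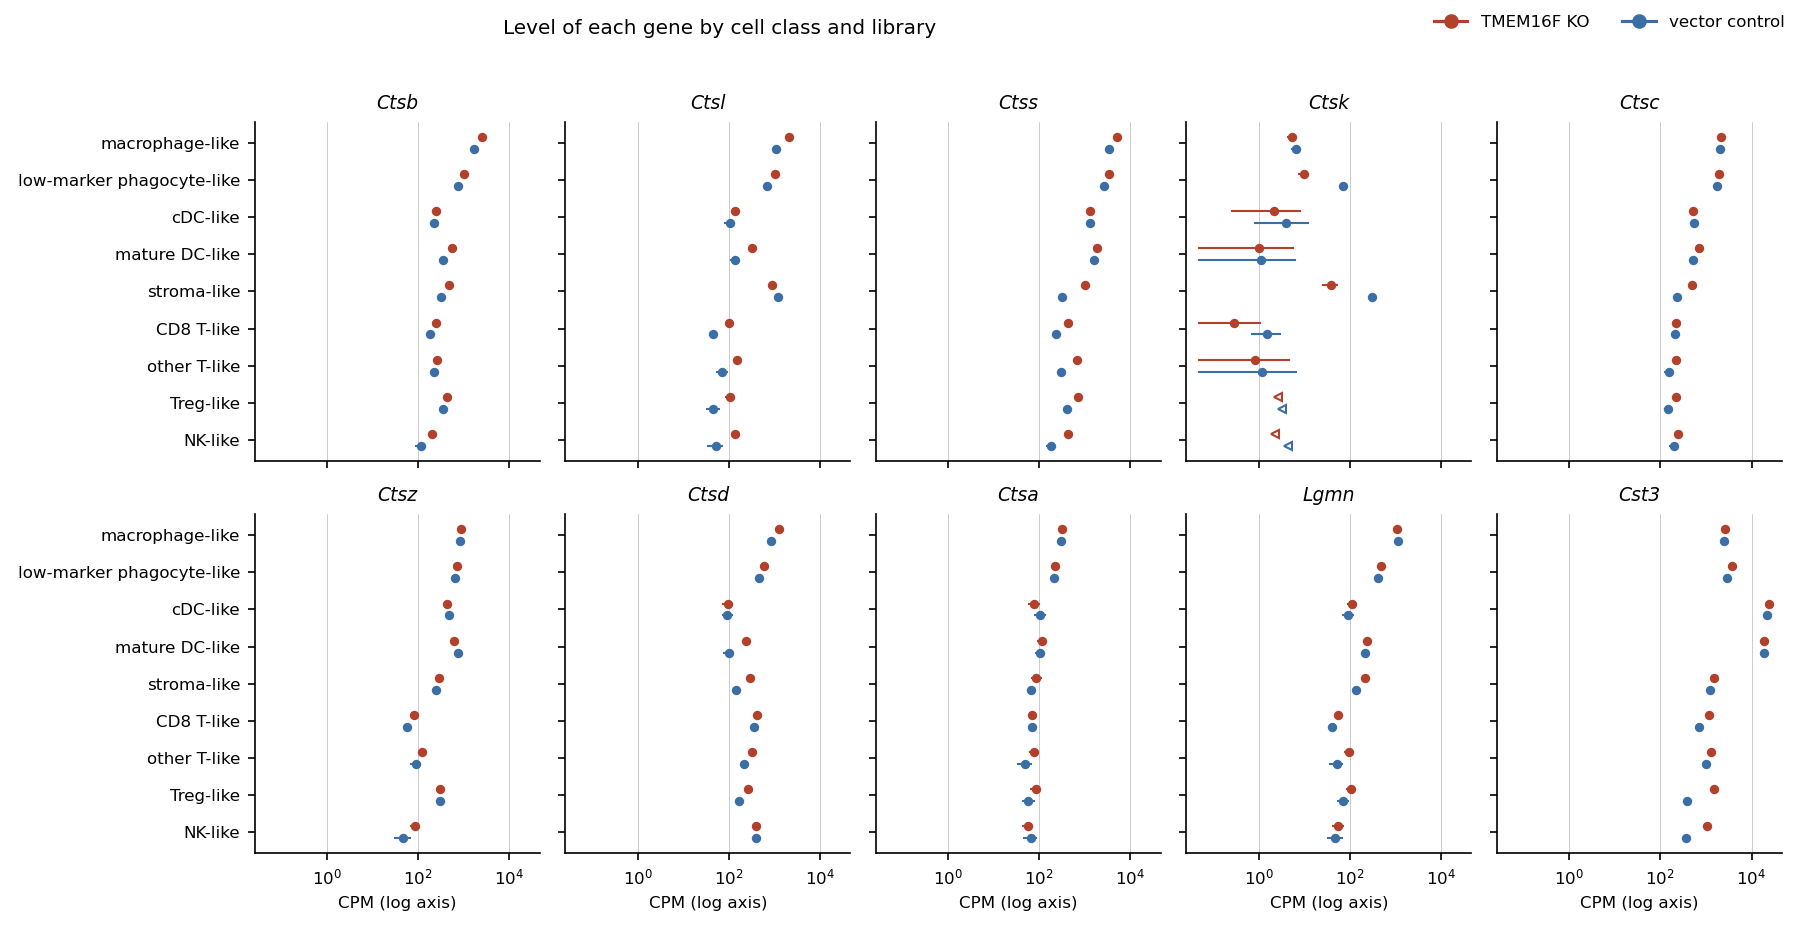
Level of each of the 10 genes (CPM, log axis, the same axis in every panel) in 9 cell classes, TMEM16F KO above vector control; points are CPM of summed UMIs, lines exact 95% Poisson intervals cut at the left edge, and open triangles mark 3 UMIs for a class in which none was found. Ctsl in macrophage-like cells stands at 2102 and 1063 CPM, and Cst3 in cDC-like cells at 23910 and 21770 CPM.

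The difference was spread over the cells of the class. When every macrophage-like cell with at least 2000 UMIs was thinned to 2000 UMIs (1460 TMEM16F KO and 1377 vector control cells, with 154 and 384 shallower cells left out), Ctsl had a UMI in 81.0% (78.8 to 82.9) of TMEM16F KO and 68.1% (65.6 to 70.6) of vector control cells. Without thinning the shares were 92.7% and 83.4%. Cells with 10 or more Ctsl UMIs after thinning made up 8.70% of TMEM16F KO and 3.20% of vector control cells. Almost every cell had Ctss, at 99.2% and 98.6%, and the difference showed in the cells with 10 or more UMIs, 39.4% in TMEM16F KO and 20.2% in vector control cells. For Ctsd the share with a UMI was 74.1% (71.8 to 76.3) in TMEM16F KO and 65.9% (63.4 to 68.4) in vector control cells, and for Ctsb 92.0% and 85.3%. Lgmn had a UMI in 80.5% (78.4 to 82.5) of TMEM16F KO and 82.7% (80.6 to 84.7) of vector control cells, so the intervals overlapped, as they did for Cst3, Ctsc, Ctsz and Ctsa.

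Single barcodes carried little of this. The richest TMEM16F KO barcode held 431 Ctsl UMIs, 1.22% of the class, and the richest vector control barcode 281, 1.50%. The median cell had 12.3 Ctsl UMIs per 10000 in TMEM16F KO and 6.03 in vector control macrophage-like cells, and the 90th percentile was 39.7 and 26.2. The median Ctss was 39.8 and 30.2 per 10000, and the median Lgmn 9.88 and 9.95.

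**Figure D2:**
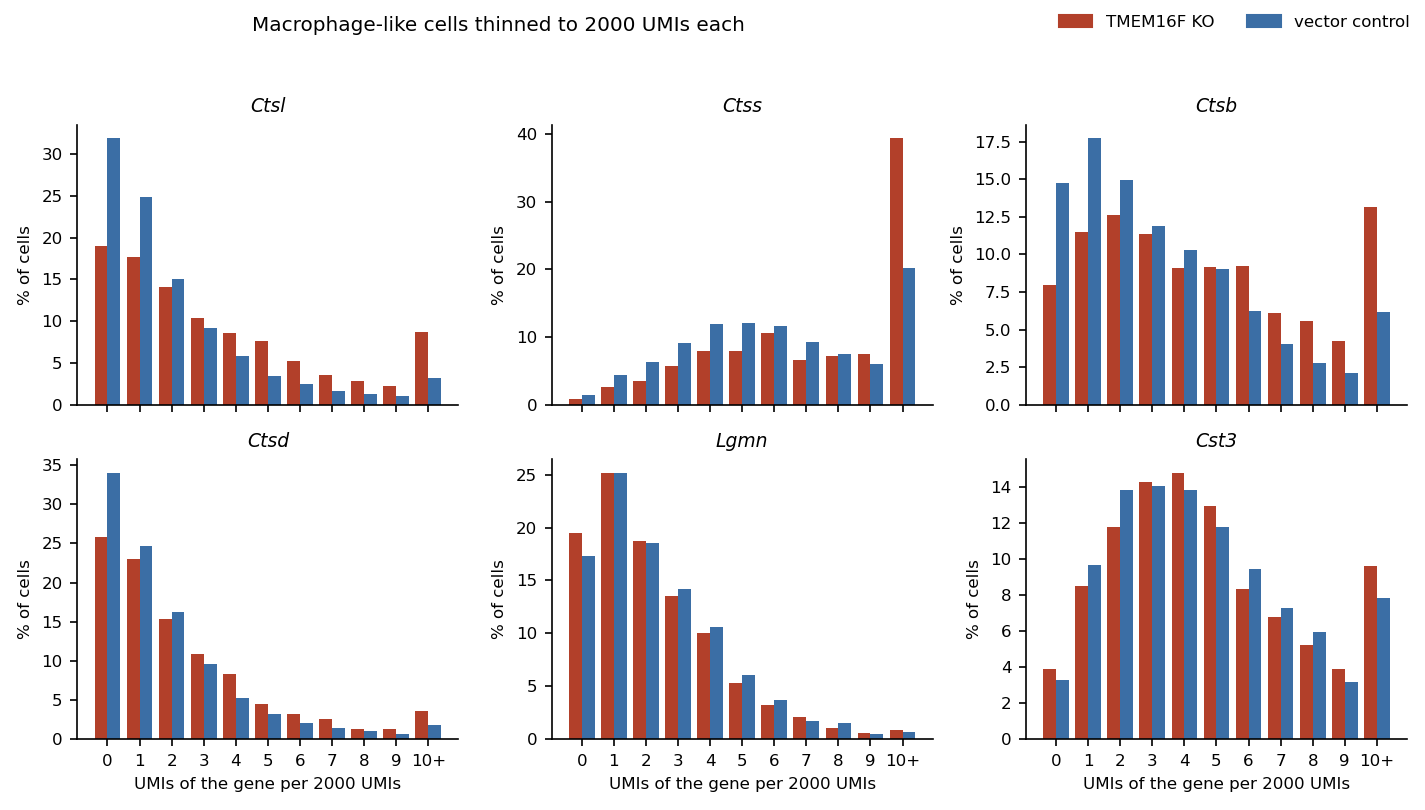
Share of macrophage-like cells (%, y axis) with a given number of UMIs of a gene (x axis) after each cell was thinned to 2000 UMIs, for 6 genes, with the TMEM16F KO bar (1460 cells) left of the vector control bar (1377 cells). The bar at 0 UMIs of Ctsl is 19.0% in TMEM16F KO and 31.9% in vector control cells, while the bars of Lgmn and Cst3 lie close together.

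The make-up of the class differed between the libraries. Clusters are numbered from a joint Leiden clustering from which the 10 genes had been kept out. Cluster 8, of barcodes with a median of 990 UMIs in TMEM16F KO and 962 UMIs in vector control cells, held 2.29% of TMEM16F KO and 15.6% of vector control macrophage-like cells. Cluster 13, led by histone and cell-division genes, held 2.73% and 10.6%. Clusters 1 and 4, led by Mmp12, Ccl8 and Pf4, together held most of the class in the TMEM16F KO library, at 35% and 24.2%, against 29.8% and 14.4% in the vector control library.

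Within the clusters Ctsl remained higher in the TMEM16F KO library. Its ratio was above 1 in 9 of 9 phagocyte clusters, from 1.03 in cluster 18 to 1.92 in cluster 9, and passed 1.5-fold in 7. The share of all genes above 1 or past 1.5-fold is not given for single clusters, so the cluster counts of every gene lack that background. The clusters come from the same 2 libraries and are no replicate check. In cluster 1 Ctsl stood at 2699 CPM in TMEM16F KO and 1661 CPM in vector control cells, in cluster 4 at 2353 and 1346 CPM, and in the low-UMI cluster 8 at 1734 and 1060 CPM. In the cycling cluster 13 it stood at 1031 CPM in TMEM16F KO and 570 CPM in vector control cells. The ratios in these 4 clusters, from 1.62 to 1.81, were below the 1.98 of the macrophage-like class. The cluster values cover all cells of a cluster, whatever their class, so they are not a breakdown of that class. Cluster 1, for instance, held 720 TMEM16F KO and 647 vector control cells, of which 565 and 525 were macrophage-like.

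Ctss, Ctsb and Ctsd were each above 1 in 8 of 9 clusters, with smaller ratios. Ctss passed 1.5-fold in clusters 1 (1.52) and 4 (1.66), where it stood at 5396 and 5457 CPM in TMEM16F KO and at 3559 and 3298 CPM in vector control cells. Ctsb reached 1.46 in cluster 13 and passed 1.5-fold in no cluster. Ctsd passed it in cluster 9 (1.54), at 1146 CPM in TMEM16F KO and 746.5 CPM in vector control cells. The exception for all 3 was cluster 18, led by Ccl8, Selenop and Mrc1, with 69 TMEM16F KO and 42 vector control cells. There Ctsd stood at 1213 CPM in TMEM16F KO and 1872 CPM in vector control cells (ratio 0.648, 0.564 to 0.744), and Lgmn at 1430 and 2173 CPM (ratio 0.658, 0.579 to 0.747).

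Lgmn was above 1 in 4 of 9 clusters and Cst3 in 8. In clusters 1 and 4 Lgmn was slightly lower in the TMEM16F KO library, with ratios of 0.908 and 0.896. Cst3 was highest over vector control in cluster 13, at 5942 CPM in TMEM16F KO and 3338 CPM in vector control cells, a ratio of 1.78 (1.73 to 1.83). Ctsc ranged from 0.885 to 1.23, Ctsz from 0.706 to 1.09 and Ctsa from 0.644 to 1.20, and none of the 3 passed 1.5-fold higher in any cluster. In cluster 18 Ctsa passed 1.5-fold lower (ratio 0.644), as did Ctsd (0.648) and Lgmn (0.658).

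**Figure D3:**
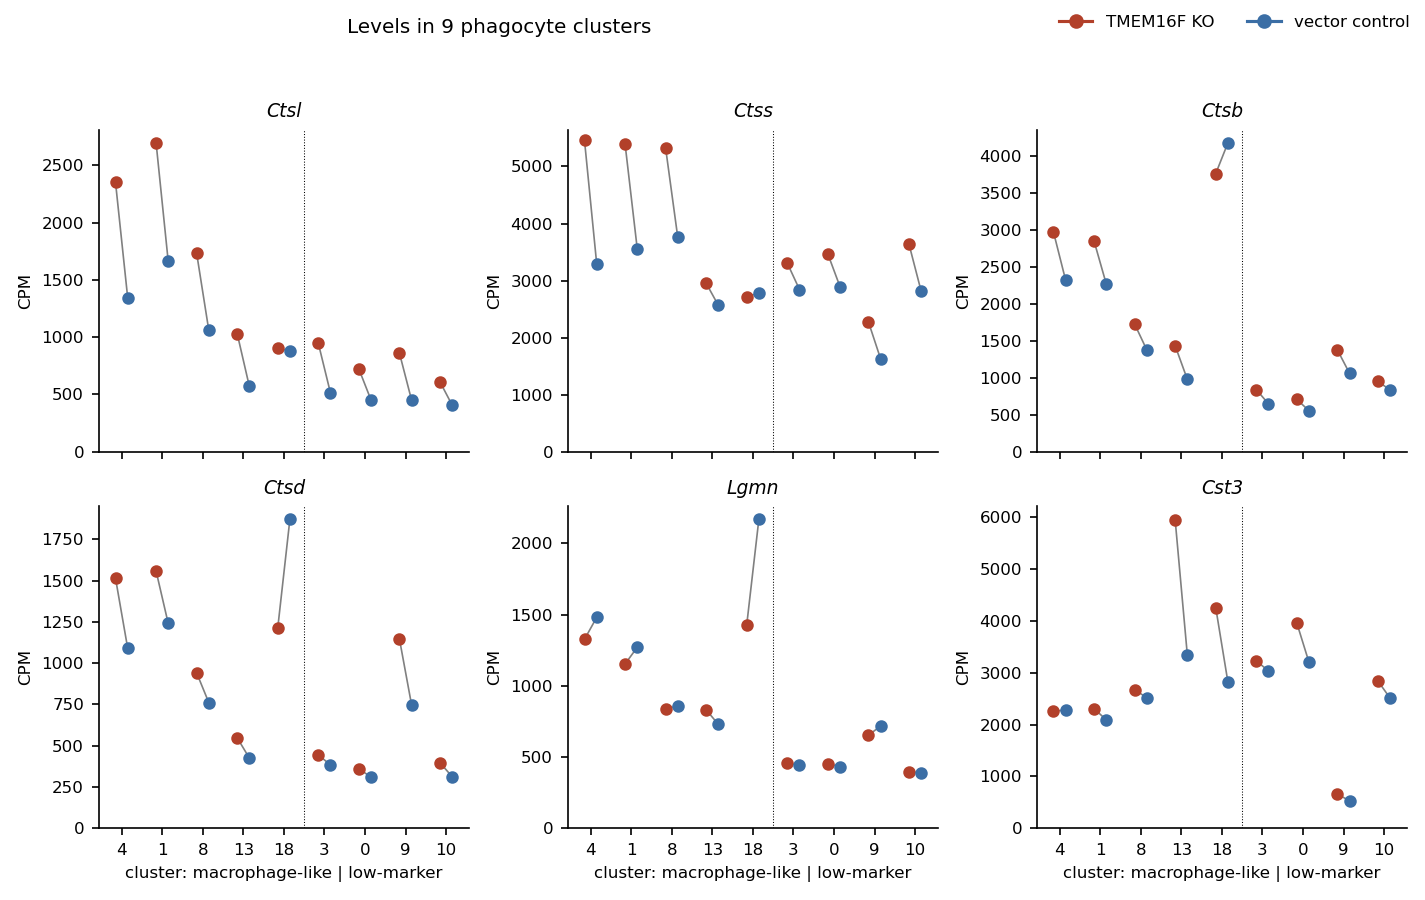
Level (CPM, linear axis from 0) of 6 genes in 9 phagocyte clusters, macrophage-like clusters left and low-marker phagocyte-like clusters right of the dotted line, with the TMEM16F KO point left of the vector control point it is joined to. The TMEM16F KO point of Ctsl lies above its vector control point in each of the 9 clusters and is nearly level with it in cluster 18 (906 and 876.5 CPM).

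The clusters also show which phagocytes hold each enzyme. In the TMEM16F KO library Ctsl ranged from 609 CPM in cluster 10, led by Ly6i, Clec4e and Il1b, to 2699 CPM in cluster 1, and in the vector control library from 406 to 1661 CPM in the same clusters. Ctsb ranged from 708 to 3768 CPM in TMEM16F KO and from 554 to 4184 CPM in vector control cells, with cluster 0, led by Arg1 and Il1b, lowest and cluster 18 highest in both. Lgmn ranged from 393.5 to 1430 CPM in TMEM16F KO and from 392 to 2173 CPM in vector control cells. By contrast Ctss spanned 2275 to 5457 CPM in TMEM16F KO and 1628 to 3755 CPM in vector control cells, a narrower spread.

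The same order was seen across phagocytes ranked by gene scores. Cells were split at the quartiles of each score. In the upper group by Il1b, Nlrp3 and Ptgs2, Ctsb stood at 930 CPM in TMEM16F KO and 655.5 CPM in vector control cells. In the lowest group it stood at 3075 and 2111 CPM. In the upper group by Mrc1, Folr2 and Cd163, Lgmn stood at 1409 CPM in TMEM16F KO and 1505 CPM in vector control cells, and in the lowest group at 509 and 518 CPM. Ctsz hardly moved with that score, at 782 CPM in both libraries in the upper group and at 780 CPM in TMEM16F KO and 717 CPM in vector control cells in the lowest. The ratio of Ctsl lay between 1.46 and 2.03 in all 8 such groups, from 4 scores.

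In low-marker phagocyte-like cells Ctsl, Ctsb, Ctss and Ctsd were again higher in the TMEM16F KO library, with smaller ratios than in macrophage-like cells. The ratios of Cst3, Lgmn, Ctsc and Ctsz were larger than there. Ctsl stood at 1057 CPM in TMEM16F KO and 688 CPM in vector control cells (ratio 1.54, 1.49 to 1.59), and its share of cells with a UMI after thinning was 63.9% and 47.3% (82.0% and 69.4% before). Ctsb followed at 1010 and 753 CPM (ratio 1.34), Ctss at 3351 and 2600 CPM (ratio 1.29), Cst3 at 3663 and 2867 CPM (ratio 1.28) and Ctsd at 589 and 463 CPM (ratio 1.27). Lgmn, Ctsc, Ctsz and Ctsa had ratios between 1.05 and 1.16. Of 10 genes above the filter 1 passed 1.5-fold higher (Ctsl) and 1 lower (Ctsk), beside 5.66% of all 7032 genes in either direction (3.48% higher and 2.18% lower), and the median log2 ratio of the 10 was 0.28, against 0.03 over all genes. Over all phagocytes together Ctsl stood at 1708 CPM in TMEM16F KO and 938 CPM in vector control cells (ratio 1.82, 1.79 to 1.85), and again 1 of 10 passed higher and 1 (Ctsk) lower, beside 5.64% of all 7003 genes (3.23% higher and 2.41% lower). In the low-marker class Ctsl no longer passed when technical genes were left out of the CPM, when cells were averaged, or after thinning.

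Among the 9 classes, dendritic cells were the richest in Cst3, and its level there was close between the libraries. Cst3 stood at 23910 CPM in TMEM16F KO and 21770 CPM in vector control cDC-like cells (ratio 1.10, 1.08 to 1.12), and at 18800 and 18710 CPM in mature DC-like cells (ratio 1.00, 0.984 to 1.03). The next highest of the 9 classes, the low-marker phagocytes, had 3663 CPM in TMEM16F KO and 2867 CPM in vector control cells.

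In cDC-like cells 0 of 9 genes passed 1.5-fold, beside 19.6% of all 6414 genes (8.48% higher and 11.1% lower), and their median log2 ratio was 0.03, against -0.03 over all genes. Ctss stood at 1277 CPM in both libraries. Ctsl, at 138 CPM in TMEM16F KO and 104.5 CPM in vector control cells, had an interval that included 1 (0.987 to 1.78). Ctsb, Ctsc, Ctsz, Ctsd, Ctsa and Lgmn also had intervals that included 1. The count was 2 with classes from clusters and 4 after thinning.

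In mature DC-like cells 3 of 9 genes passed 1.5-fold higher and 0 lower, beside 24.6% of all 6694 genes (17.7% higher and 6.93% lower), with a median log2 ratio of 0.25, against 0.09 over all genes. Ctsl stood at 323 CPM in TMEM16F KO and 134 CPM in vector control cells (ratio 2.42, 1.95 to 3.01), Ctsd at 237 and 98.8 CPM (ratio 2.40, 1.87 to 3.1) and Ctsb at 542 and 341.5 CPM (ratio 1.59, 1.38 to 1.84). Under the alternatives the Ctsd ratio was as low as 1.22, with classes from clusters, and the Ctsb ratio as low as 1.41, with no barcode left out for its doublet score. The richest barcode held 18.5% of the Ctsb UMIs in TMEM16F KO and 26.0% in vector control cells. Without the richest barcode of each library Ctsl stood at 257 CPM in TMEM16F KO and 79.75 CPM in vector control cells. The ratios were then 3.22 for Ctsl, 2.27 for Ctsd and 1.75 for Ctsb. The 9 T cell markers summed to 954 CPM in TMEM16F KO and 272 CPM in vector control mature DC-like cells, with 9 of 9 higher. The 12 macrophage markers summed to 4581 and 3906 CPM, with 6 of 12 higher. Among all genes above the filter, 3884 of 6694 were higher. The part of these markers in the result was not tested.

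Stroma-like cells, led by Bgn, Col3a1 and Col1a1, were the exception for Ctsl. Whether these cells came from the host or from the engrafted line was not tested. Ano6 stood there at 53.4 CPM (45 UMIs) in TMEM16F KO and 59.3 CPM (172 UMIs) in vector control cells, which does not check the deletion. Ctsl stood at 909 CPM in TMEM16F KO and 1199 CPM in vector control cells (ratio 0.758, 0.700 to 0.820), in a class in which 5 of the other genes passed 1.5-fold higher. After thinning to 2000 UMIs the ratio was 1.00, and under the other alternatives it stayed below 1. Ctss stood at 1013 CPM in TMEM16F KO and 314 CPM in vector control cells (ratio 3.23, 2.93 to 3.54), Ctsc at 490 and 228.5 CPM (ratio 2.15), Ctsd at 294 and 145 CPM (ratio 2.03), Lgmn at 221 and 140 CPM (ratio 1.58) and Ctsb at 473.5 and 308 CPM (ratio 1.54). In all 5 of 10 genes passed 1.5-fold higher and 1 (Ctsk) lower, beside 23.5% of all 8150 genes (16% higher and 7.46% lower), and the median log2 ratio was 0.52, against 0.05 over all genes. Without the richest barcodes Ctsb had a ratio of 1.45, below the line, and Ctsc 1.58. Over all alternatives the lowest ratio was 1.93 for Ctss, 1.41 for Lgmn, 1.40 for Ctsd, 1.30 for Ctsc and 1.18 for Ctsb, so of the 5 only Ctss passed 1.5-fold in each of them.

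Leukocyte transcripts and the markers of the class itself were also higher in the TMEM16F KO library. The 12 macrophage markers summed to 2995 CPM in TMEM16F KO and 1826 CPM in vector control stroma-like cells, with 12 of 12 higher. The 8 neutrophil markers summed to 198 and 30.3 CPM, with 7 of 8 higher, and the 8 stroma markers to 4623 and 3455 CPM, with 8 of 8 higher. Among all genes above the filter, 4425 of 8150 were higher. Of the 7 genes of MHC class II and invariant chain processing above the filter, 7 passed 1.5-fold higher, beside 16% of all genes. The richest TMEM16F KO barcode held 22.7% of the class's Ctss and 36.1% of its Ctsc UMIs. The part of these transcripts in the result was not tested.

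**Figure D4:**
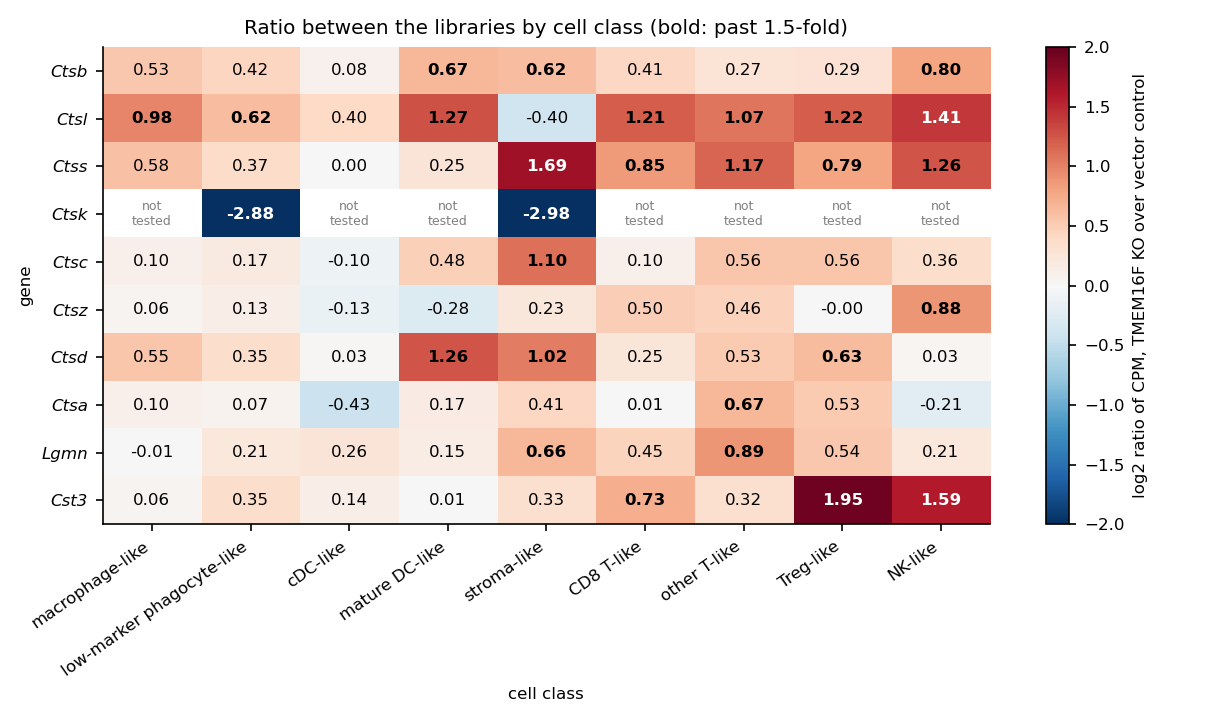
Log2 ratio of CPM, TMEM16F KO over vector control, for 10 genes (rows) in 9 cell classes (columns), with the value in each cell, bold past 1.5-fold, and colours cut at -2 and 2. The Ctsl row is positive in every class except the stroma-like cells (-0.40), and the cDC-like column holds no bold value.

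T-like and NK-like cells held lower levels of most of the enzymes, and Ctsl and Ctss were higher in the TMEM16F KO library in each of these 4 classes. In CD8 T-like cells Ctsl stood at 103 CPM in TMEM16F KO and 44.7 CPM in vector control cells (ratio 2.31, 2.00 to 2.67), and Ctss at 423 and 234 CPM (ratio 1.80, 1.69 to 1.93). In NK-like cells Ctsl stood at 136 and 51.3 CPM (ratio 2.66, 1.84 to 3.94) and Ctss at 429 and 179 CPM (ratio 2.40). With no barcode left out for its doublet score the NK-like ratio of Ctsl was 1.47, and after thinning 12.1. In Treg-like cells the ratios were 2.33 for Ctsl and 1.72 for Ctss, and in other T-like cells 2.10 and 2.24.

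Macrophage markers moved the same way in these classes. The 12 macrophage markers summed to 825.5 CPM in TMEM16F KO and 532 CPM in vector control CD8 T-like cells (ratio 1.55, with 12 of 12 higher). Among all genes above the filter, 3678 of 7268 were higher there. The ratio of the sum was 1.46 in other T-like (11 of 12 higher), 1.63 in Treg-like (10 of 12) and 1.62 in NK-like cells (12 of 12). Among all genes, 4018 of 7544, 3858 of 7530 and 4052 of 7258 were higher in these classes, in that order. None of the 12 was at 0 in either library. In CD8 T-like cells these markers stood at 2.91% to 7.01% of their macrophage-like level in TMEM16F KO and at 1.97% to 4.49% in vector control cells. Ctsl stood in the same range, at 4.91% and 4.21% of its own macrophage-like level, and so it did in Treg-like cells (5.05% and 4.30%, against 2.88% to 8.99% and 2.01% to 6.55% for the markers). In other T-like cells it stood at 7.24% in TMEM16F KO, within the range of the markers, and at 6.82% in vector control cells, above it. In NK-like cells Ctsl stood just above that range in both libraries, at 6.49% and 4.83%. Lyz2, Pf4 and Ccl8, other phagocyte genes, had ratios of 1.88, 2.235 and 1.83 in CD8 T-like cells. They had 2.59, 2.30 and 1.94 in other T-like, 3.01, 2.38 and 1.94 in Treg-like and 2.51, 2.11 and 2.10 in NK-like cells. Of 7 MHC class II and invariant chain genes above the filter, 6 passed 1.5-fold higher in CD8 T-like and other T-like cells. The share of all genes was 3.56% and 12.3%. In Treg-like and NK-like cells 7 of 7 passed, beside 10.3% and 14.4%. The part of these markers and genes in the differences was not tested.

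In CD8 T-like cells Ctsb, Ctss, Ctsc, Ctsz, Ctsd, Ctsa and Cst3 stood above the range of the macrophage markers in both libraries, and Ctsl and Lgmn within it. Ctss stood at 8.39% of its macrophage-like level in TMEM16F KO and 6.96% in vector control cells, Ctsa at 21.8% and 23.2%, and Cst3 at 44.4% and 27.9%. Ctsd stood at 415 CPM in TMEM16F KO and 350 CPM in vector control cells, 32.9% and 40.8% of its macrophage-like level, and in NK-like cells at 399 and 390 CPM. After thinning, 55.0% (51.7 to 58.3) of TMEM16F KO and 47.8% (44.0 to 51.6) of vector control cells of the CD8 T-like class had a Ctsd UMI (82.0% and 79.4% before). Its ratios in these 2 classes, 1.19 (1.12 to 1.26) and 1.02 (0.881 to 1.19), were below those of Ctsl and Ctss. Ctsz was 34.7% of its macrophage-like level in TMEM16F KO and 36.3% in vector control Treg-like cells, at 297 and 298 CPM.

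Cst3 in Treg-like and NK-like cells lay partly in single barcodes and in barcodes with dendritic cell markers. It stood at 1514 CPM in TMEM16F KO and 391 CPM in vector control Treg-like cells (ratio 3.87, 3.45 to 4.34), and 1 TMEM16F KO barcode held 24.9% of its UMIs. Barcodes with UMIs of at least 2 conventional or 2 mature dendritic cell markers were then left out. They were 47 of 215 TMEM16F KO and 27 of 167 vector control cells. Without them Cst3 stood at 461 CPM in TMEM16F KO and 416 CPM in vector control cells, a ratio of 1.11 (0.946 to 1.30). In NK-like cells, where 1 TMEM16F KO barcode held 40.5% of the Cst3 UMIs, the ratio was 3.02 with all cells and 1.28 (1.04 to 1.57) without such barcodes, and in CD8 T-like cells 1.66 and 1.40. In other T-like cells the Cst3 ratio was 1.24 with all cells and 1.75 (1.55 to 1.98) without such barcodes, past 1.5-fold, as was Ctsc at 1.55. The Ctsl ratio without them was 2.70 in CD8 T-like, 2.10 in Treg-like and 2.67 in NK-like cells. The 9 conventional dendritic cell markers summed to 425 CPM in TMEM16F KO and 309 CPM in vector control Treg-like cells.

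Among CD8 T-like cells 3 of 9 genes passed 1.5-fold higher (Ctsl, Ctss and Cst3), beside 6.37% of all 7268 genes (3.56% higher and 2.81% lower). In other T-like cells 4 of 9 passed higher (Ctsl, Ctss, Ctsa and Lgmn), beside 19.9% of all genes (12.3% higher and 7.58% lower). In Treg-like cells 4 of 9 passed higher (Ctsl, Ctss, Ctsd and Cst3), beside 18.4% (10.3% higher and 8.15% lower). In NK-like cells 5 of 9 passed higher (Ctsb, Ctsl, Ctss, Ctsz and Cst3), beside 22.3% (14.4% higher and 7.89% lower). The median log2 ratio of the 9 was 0.45, 0.56, 0.56 and 0.80 in these 4 classes in the order given, against 0.0042, 0.03, 0.01 and 0.07 over all genes. None of the 9 passed 1.5-fold lower in them. The Treg-like ratio of Ctsd, 1.54, was as low as 1.41 under the alternatives.

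Ctsk was concentrated in single barcodes of the vector control library. In stroma-like cells it stood at 38.0 CPM in TMEM16F KO and 300.2 CPM in vector control cells, and in low-marker phagocyte-like cells at 9.69 and 71.3 CPM. A single vector control stroma-like barcode held 795 of the 871 Ctsk UMIs of its class, and a single vector control low-marker phagocyte-like barcode held 593 of 629. Without the richest barcode of each library, Ctsk stood at 19.0 CPM in TMEM16F KO and 26.2 CPM in vector control stroma-like cells, and at 6.75 and 4.08 CPM in low-marker phagocyte-like cells, where the direction turned.

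Both rich barcodes carried other transcripts that, as background, are known together with Ctsk from osteoclasts. The stroma-like barcode, of 83317 UMIs, held 198 UMIs of Acp5, 38 of Mmp9, 47 of Atp6v0d2 and 28 of Jdp2, and 10 of Col1a1. The low-marker phagocyte-like barcode, of 24612 UMIs, held 153 UMIs of Acp5, 78 of Mmp9, 16 of Atp6v0d2 and 45 of Jdp2, and 0 of Col1a1. No cell type is named from 2 barcodes. In all, 105 TMEM16F KO and 124 vector control cells had a Ctsk UMI, and 10 and 7 had 5 or more.

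**Figure D5:**
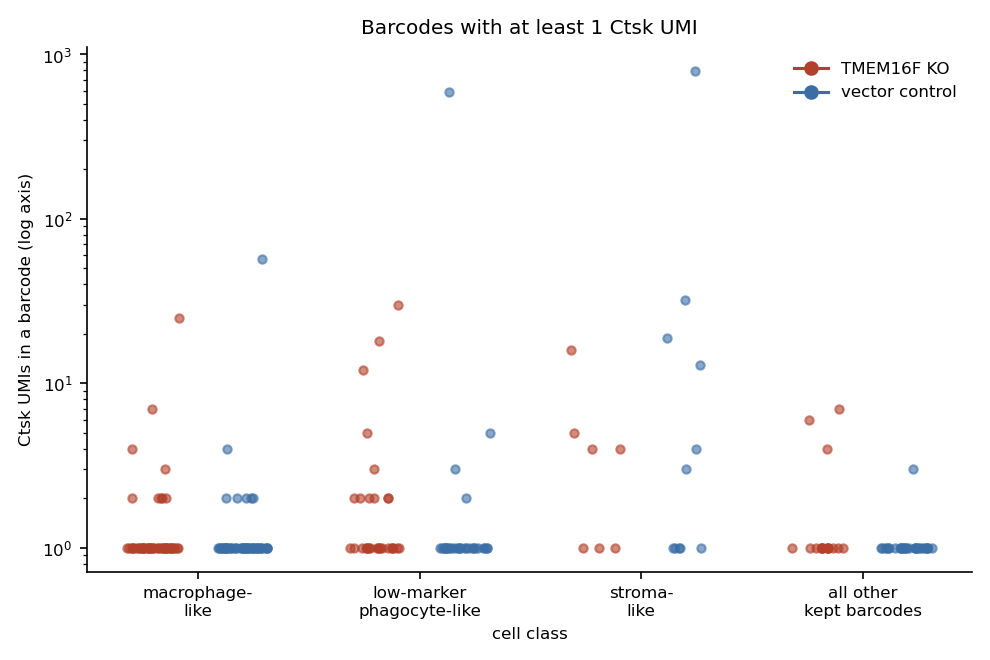
Ctsk UMIs (log axis) in each barcode with at least 1, by cell class, with TMEM16F KO points left of vector control points; horizontal scatter within a group is random. The vector control barcodes with 795 and 593 UMIs stand far above the highest TMEM16F KO barcode, which has 30.

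Lists of other lysosomal genes, chosen with earlier results of these data known, were set beside the 10 in macrophage-like cells. Of 19 other lysosomal hydrolases and activators above the filter, 1 passed 1.5-fold higher and 0 lower, beside the 3.37% of all genes that passed higher (median log2 ratio 0.16, against -0.0019 over all genes). It was Gla, alpha-galactosidase A, at 77.7 CPM in TMEM16F KO and 49.2 CPM in vector control cells. Of 16 subunits and partners of the proton pump that acidifies lysosomes, 1 passed (median 0.19, with 15 above 0, beside 3450 of all 6949 genes). It was the subunit Atp6v0d2, at 34.4 CPM in TMEM16F KO and 16.8 CPM in vector control cells, a ratio of 2.05 (1.78 to 2.37). Of 6 regulators 1 passed (median 0.17), the transcription factor Mitf, at 72.1 and 44.1 CPM, a ratio of 1.63 (1.49 to 1.79). With cells averaged 0 pump genes passed, and with classes from clusters 0 regulators passed, so the calls of Atp6v0d2 and Mitf ended there. The counts of 1 of 19 and 1 of 16 are near the share over all genes.

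Other lists held no gene past 1.5-fold. Of 12 lysosomal membrane and transport genes 0 passed, with a median of 0.27 and 12 of 12 above 0, beside 3450 of all 6949 genes above 0. Among these 12, Cd68 is also a macrophage marker used to assign the class. The 2 other cathepsins above the filter, Ctsh and Ctso, had ratios of 1.16 and 1.49, and the stefin Cstb, an inhibitor inside the cell, stood at 1223 CPM in TMEM16F KO and 945 CPM in vector control cells (ratio 1.29). Of 8 genes of MHC class II and invariant chain processing, the pathway in which Ctss and Ctsl act, 0 passed and the median was -0.05. Cd74, the invariant chain itself, stood at 9432 CPM in TMEM16F KO and 10310 CPM in vector control macrophage-like cells (ratio 0.915), beside the 1.50 of Ctss and 1.98 of Ctsl.

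The genes whose levels ran most like each enzyme's were found over 18 points, 9 classes in 2 libraries, by Pearson's r of log2(CPM + 1) among 7778 genes. The points share cells of 2 libraries and the classes differ in depth, so the values are a description. Trem2 and Batf3, named below, are among the markers that assigned the classes, so their likeness may be partly built in. Nearest to Ctsl were Blvrb (0.96), Pdpn (0.96) and Gm56768 (0.95), to Ctss Clec4a1 (0.98), Clec4a3 (0.98) and Cybb (0.98), and to Lgmn Trem2 (0.98), Ninj1 (0.97) and Acp2 (0.97). Ctsb ran closest to Cln8 (0.95), Lgmn (0.95) and Pf4 (0.95), and Ctsc to Prdx5 (0.99), Fcgr2b (0.98) and Fcgr3 (0.98). Cst3 ran closest to H2-DMb2 (0.97), Tbc1d8 (0.97) and Batf3 (0.95), genes known from dendritic cells in the case of H2-DMb2 and Batf3. For Ctsz they were P2rx4, Nampt and Gng5 (0.97 to 0.95), and for Ctsa Ctsc, Msr1 and Cndp2 (0.96 each). For Ctsk they were Apbb2, Vdac1 and Pfkl (0.90 to 0.87), and its points rest on the barcodes described above.

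Classes with fewer than 50 cells in a library were not compared, and their levels are given as values. Ctsl was highest of all classes in plasmacytoid dendritic cell-like cells, with 2148 CPM in 21 TMEM16F KO and 2826 CPM in 16 vector control cells. In TMEM16F KO its interval overlapped that of the macrophage-like cells, and in both libraries 100% of these cells had a Ctsl UMI. Ctsb there stood at 1712 CPM in TMEM16F KO and 1968 CPM in vector control cells. In neutrophil-like cells (42 and 20) a single vector control barcode held 86.3% of the Ctsl UMIs, so their levels are not described further.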

How the data were processed

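Single-cell RNA sequencing was made with the 10x Genomics 3′ chemistry, per the labels' protocols, from 1 TMEM16F KO and 1 vector control library. The authors deposited whole UMI counts per gene and barcode with no normalisation, and per the file headers Cell Ranger 8.0.0 made them. The submitters' processing notes name the build mm10 and the tool Seurat 3.1.1. The sources used here do not give the annotation.

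A barcode needed 200 genes or more and a mitochondrial share under 20%. Scrublet's automatic threshold marked 1 TMEM16F KO and 0 vector control barcodes and so did not work, and the highest scores were left out at 0.8% per 1000 barcodes (287 and 221). Classes were assigned from UMIs of marker lists, with thresholds set after seeing the data, and clusters came from Leiden clustering (scanpy 1.11.5, leidenalg 0.10.2, 2000 variable genes, 30 components, resolution 1) without the 10 genes. Summed UMIs gave CPM with exact Poisson intervals, ratios with exact conditional binomial intervals, and shares with Clopper-Pearson intervals (scipy 1.17.1), all at 95%. With 1 library per group there was no test. The ratio and count steps were tested on simulated data. The 10 genes, the other gene lists and the markers were chosen with earlier results of these data known. Text names all 10 genes, list members past 1.5-fold in macrophage-like cells and the 3 genes most like each of the 10, except for Ctsd, for which they are not reported here. Ctsh, Ctso, Cstb and Cd74, and Lyz2, Pf4 and Ccl8 in lymphocytes, were named after their values were seen. The alternatives that left out the richest barcodes, the cluster of lowest UMIs or barcodes with dendritic cell markers, or weighted clusters alike, were chosen after seeing the data.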

Additional observations from a re-analysis of the deposited data

Results flagged for a closer look

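Ctsl in stroma-like cells was looked at again because it ran against the other classes. Its ratio of TMEM16F KO over vector control was 0.758, while it passed 1.5-fold higher in 8 other groupings of cells, up to 2.66 in NK-like cells. Ctsz in mature DC-like cells had a ratio of 0.824, while it passed 1.5-fold higher in 1 other class, NK-like cells, at 1.84. In both cases the difference between classes was not tested.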

How the results depend on the processing

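No paired analysis was possible because each group has 1 library. Of 1087 ratios of the 10 genes under the alternatives, 844 stayed within the counting interval of the reported ratio, 241 moved outside it and 2 reversed. Both reversals were Ctsk without its richest barcodes, with a log2 ratio of 0.73 in low-marker phagocyte-like and 0.032 in all phagocyte-like cells. Among the counts, background shares and summed levels, 168 of 209 alternatives stayed and 41 moved. The number of genes past the line in macrophage-like cells was 2 with classes from clusters, with cells of at least 2000 UMIs, without the richest barcodes or without the cluster of lowest UMIs, and 0 at 2-fold. In low-marker phagocyte-like cells it was 1 without technical genes, with cells averaged, after thinning and at 2-fold, and in all phagocyte-like cells 1 at 2-fold and without the richest barcodes. In cDC-like cells it was 2 with clusters and 4 after thinning, and in CD8 T-like cells 5 after thinning. At 2-fold it was 1 in CD8 T-like, 2 in other T-like, 2 in Treg-like and 3 in NK-like cells, and NK-like cells also had 3 without barcodes with dendritic cell markers. In macrophage-like cells with cells averaged, the lists had 1 of the other cathepsins, 2 membrane genes, 3 hydrolases and 0 pump genes past the line. Clusters gave 2 hydrolases and 0 regulators, thinning 3 and 2, and 2-fold 0 and 0. Without the filter the background share was 26.3% in macrophage-like, 26.5% in low-marker, 26.8% in all phagocyte-like, 34.8% in cDC-like, 37.9% in mature DC-like, 37.2% in stroma-like, 27.4% in CD8 T-like, 31.5% in other T-like, 32.4% in Treg-like and 38.2% in NK-like cells. With clusters the 10 genes summed to 18900 CPM in TMEM16F KO and 14170 CPM in vector control macrophage-like cells. The cause of these changes was not tested. Ctsl in NK-like cells had a ratio of 1.47 to 12.1 over the alternatives.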
